A study of Homo sapiens with 12 samples.

Results

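The genes described here encode the proteins of the cytosolic ribosome. They were taken from the tables by symbol, as RPL or RPS followed by a number. The letter A, X or L and a copy number could follow, and no other letter. RPSA, RPLP0, RPLP1 and RPLP2 were added. Pseudogenes were left out. The rule found 84 genes among 26372 rows, 52 of the large subunit and 32 of the small subunit. Of these, 81 reached 1 FPKM in some group, 49 large and 32 small, and entered the comparisons.

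RNA was sequenced from HCT116, a human colorectal carcinoma line, after selection of polyadenylated RNA. The 2 genotypes were wild type (WT) and KDM3A knockout (KO), and the labels do not say how many clones the knockout represents. Each genotype was studied in 3 culture states: mock (the normal state), starved (no serum), and refed (FBS, fetal bovine serum, added to the serum-free culture of cells starved for 24 h). The labels list 2 samples for each of the 6 groups, but each group has 1 table with 1 value per gene, so no spread between replicates can be given.

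A ribosome holds 1 copy of nearly every ribosomal protein, and cells make these proteins in matched amounts. Many of the mRNAs begin with a C followed by a run of pyrimidines, the 5′ terminal oligopyrimidine (TOP) motif. Through it their translation is held back when nutrients or growth factors are withdrawn and mTORC1 (the growth-sensing kinase complex) is inactive, and is released when they return. That control acts on translation, which RNA levels do not measure. KDM3A removes methyl groups from lysine 9 of histone H3.

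The start of the transcript is shown for members on which the results below turn. Starts were taken from a RefSeq promoter table (GRCh38.p14), which matched 67 of the 84 genes by symbol. A gene was counted as having a TOP start where an annotated start was a C and the next 4 bases were pyrimidines. This held for 47 of 67 ribosomal protein genes (70.1%) and for 5.14% of the 27305 genes in the table. Each line gives 10 bases before the annotated start and 20 from it on, 5′ to 3′ on the gene's strand, with the pyrimidine run from the start in capitals. Highly expressed and risen members came first: RPL41 at chr12:56116623-56116652 (+), RPL35 at chr9:124861938-124861967 (−), RPL12 at chr9:127451387-127451416 (−) and RPLP0 at chr12:120201092-120201121 (−).
RPL41: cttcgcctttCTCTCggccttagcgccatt
RPL35: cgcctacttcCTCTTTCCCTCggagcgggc
RPL12: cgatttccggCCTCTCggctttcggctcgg
RPLP0: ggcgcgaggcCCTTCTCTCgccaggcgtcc
Small-subunit members described under starvation were RPS12 at chr6:132814559-132814588 (+) and RPS19 at chr19:41860245-41860274 (+), and RPS6 at chr9:19380217-19380246 (−) is the substrate of S6 kinase.
RPS12: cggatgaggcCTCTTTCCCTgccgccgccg
RPS19: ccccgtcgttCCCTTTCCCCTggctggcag
RPS6: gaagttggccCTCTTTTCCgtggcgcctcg
The paralogs are shown with their main copies, because they stand apart in level. They are RPS27 at chr1:153990752-153990781 (+) and RPS27L at chr15:63157458-63157487 (−), RPL26 at chr17:8383174-8383203 (−) and RPL26L1 at chr5:172958719-172958748 (+), and RPL22 at chr1:6199576-6199605 (−) and RPL22L1 at chr3:170870176-170870205 (−).
RPS27: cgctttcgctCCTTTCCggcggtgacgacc
RPS27L: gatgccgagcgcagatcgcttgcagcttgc
RPL26: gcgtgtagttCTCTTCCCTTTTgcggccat
RPL26L1: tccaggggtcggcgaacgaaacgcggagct
RPL22: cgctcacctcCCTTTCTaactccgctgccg
RPL22L1: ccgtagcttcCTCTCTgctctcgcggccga
RPS27 and RPL26 had a TOP start by this count and their low-level copies RPS27L and RPL26L1 did not, whereas RPL22 and RPL22L1 both had one. RPL7L1 (chr6:42879606-42879635, +, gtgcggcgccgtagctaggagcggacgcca) had none either. The 6 letters CTTTCC, searched on both strands of the window from 250 bases before to 50 after the start, were in 31 of 67 members (46.3%) and in 30.2% of all genes in the table. Such a match can overlap the pyrimidine run itself, so the measures are not separate.

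Values are FPKM (fragment counts divided by transcript length and by library size), and the depth of each library is unknown. KDM3A had 41.3, 17.8 and 19.8 FPKM in WT mock, starved and refed, and at 3.15, 3.01 and 3.59 in KO. Of 8 colon epithelial markers 7 were at 1 FPKM or more in every group, with summed FPKM of 2127 to 2488 in WT and 4725 to 5575 in KO. WT mock stood apart: SNORD81, a small nucleolar RNA, was listed at 593431 FPKM there and at 0 in the other groups. All 10 endothelial markers reached 1 FPKM in WT mock (sum 198 FPKM) against 1 of 10 elsewhere (sums 4.57 to 5.88). None of 4 leukocyte and 2 liver markers reached 1 FPKM in any group, and 1 of 6 fibroblast markers did. What part these differences have in the results that use WT mock was not tested beyond leaving that group out.

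Ribosomal protein mRNAs were among the most abundant of the cells. Between 67 and 70 of the 100 highest genes in a group were members. Their summed FPKM made up 35.0%, 38.0% and 35.3% of the total without short RNA features in WT mock, starved and refed, and 34.9%, 40.6% and 38.4% in KO. In both genotypes the starved share was the highest. Large-subunit mRNAs summed to between 1.30 and 1.34 times the small-subunit mRNAs in every group, so the balance between subunits moved little.

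Levels within the set spanned 336-fold in the mean over groups. RPL41, the shortest protein of the set, was the highest, at 8805, 8129 and 7700.5 FPKM in WT mock, starved and refed and 10979, 13029.6 and 12826 in KO. It was followed by RPS18 (5397 to 9079 over the groups), RPS27 (4244 to 6947), RPS2 (4089.7 to 5729.6) and the stalk base protein RPLP0 (3272 to 5073). The lowest of the 81 were RPL7L1 (26.8 to 34.3), RPS27L (54.6 to 86.5), RPL26L1 (54.3 to 82.7), RPL22L1 (133 to 182) and RPS23 (234 to 291), and 4 of these 5 are paralogs of another member. Most of the rest lay close together, with 63 of 81 genes at a mean of 1000 to 5000 FPKM. The order was nearly fixed: the Spearman correlation of member levels between any 2 groups was 0.973 to 0.998 across 81 genes. Genes within a group share a library, and a gene's own transcript length enters its value in every group.

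**Figure D1:**
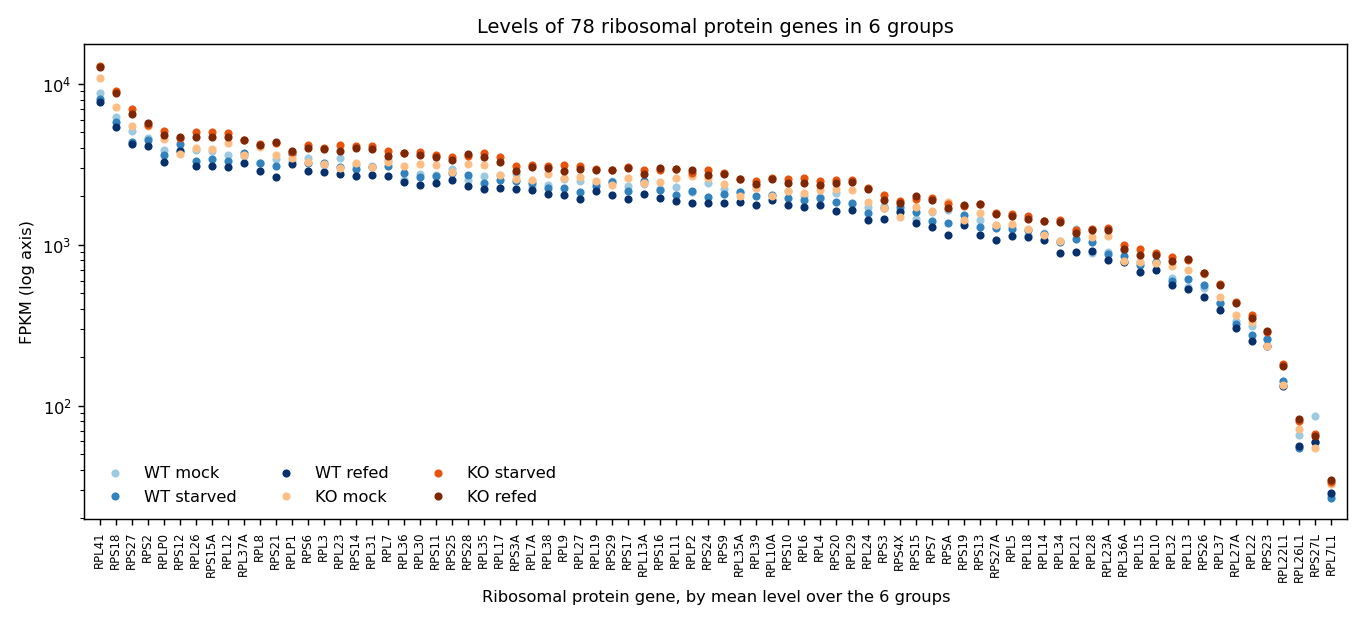
FPKM (log axis) of 78 of the 81 ribosomal protein genes, ordered by mean level, with 1 point for each of the 6 groups. RPL41 leads at up to 13029.6 FPKM, most genes lie between 1000 and 5000, and the paralogs RPL22L1, RPL26L1, RPS27L and RPL7L1 close the order.

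Not all of these values are equally firm. RPL10L, RPL39L and RPL3L stayed under 1 FPKM in every group and were not compared. RPL10L was listed at 0 in 5 groups and at 0.0604 in WT refed, RPL39L was highest at 0.427 in WT mock, and RPL3L was highest at 0.0822, also in WT mock. Their main copies RPL10, RPL39 and RPL3 ranged over 697 to 887, 1759 to 2510.4 and 2853 to 3982 FPKM. Ribosomal protein genes have many processed pseudogenes, to which reads can align. A later annotation (GENCODE v29) names 1145 pseudogenes after 77 of the 84 genes, most after RPL23A (91), RPSA (74), RPL21 (66), RPL7 (61) and RPL12 (50). The tables list 31 pseudogene rows, 14 of them at 1 FPKM or more in some group, and none above 0.931% of its parent. How reads that match several copies were assigned is not given in the sources used here, so the levels of these 5 genes are uncertain.

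For all comparisons log2(FPKM + 1) was used, and the median deviation of all 13456 features was subtracted from each group. Differences are therefore relative to the typical gene. As deposited, the median feature was higher by 0.16 in KO than in WT and differed by −0.13 between starved and mock (log2, averaged). Averaged comparisons were tested with limma, in which the residual is the unevenness of an effect across states or genotypes and not replicate error. "Rose" and "fell" mark an adjusted p under 0.05 in that fit. Comparisons of 1 value with 1 value have no test, and for them genes were counted that were at least 25% higher, lower by the same ratio (0.32 log2 units), or 2-fold apart.

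Most ribosomal protein mRNAs were slightly higher in KO than in WT. Averaged over the 3 states, 13 of 81 rose and none fell, against 13.5% of all features that rose and 11.0% that fell. The share of members that rose, 16.0%, was near that background, so the calls alone do not set them apart. Their median difference was 0.18 on the log2 scale (range −0.29 to 0.55), against 0.00 for all features. In direction 73 of 81 were above 0, against 49.6% of all features. Across 11773 features with an annotated transcript, the averaged difference correlated with mean level (Spearman 0.25), and members are among the most abundant mRNAs. The part of level in the members' difference was not tested beyond the limit of 100 FPKM described below. On the deposited values 21 rose and none fell, with a median of 0.35, where 28.7% of all features rose and 4.58% fell. None of the counts of falls, on either scale, included a ribosomal protein gene.

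Among those that rose, RPL41 had an averaged difference of 0.42 ± 0.08 (log2, SE from limma, adjusted p = 0.0302), from the values given above. All its KO values were above all its WT values.

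RPL35, which sits by the exit of the nascent peptide, had 2672, 2413 and 2224 FPKM in WT and 3143, 3734 and 3542 FPKM in KO, and rose by 0.35 ± 0.08 (limma adjusted p = 0.0442). Every KO value was above every WT value, and the gap was smallest in mock culture. RPL23A, a neighbour of RPL35 at the peptide exit and the gene with the most pseudogenes, had 905, 883 and 804 FPKM in WT and 1129, 1269.7 and 1245 FPKM in KO (0.33 ± 0.06, adjusted p = 0.0252). RPL12, a protein of the stalk base, had 3618, 3309.8 and 3050.3 FPKM in WT and 4295, 4962 and 4665 FPKM in KO (0.32 ± 0.07, adjusted p = 0.0411). In both genes the genotypes did not overlap.

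Of the 13 that rose, 11 belong to the large subunit (of 49) and 2 to the small subunit (of 32). The medians of the subunits were alike, 0.18 and 0.19. A difference between the subunits was not tested.

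The stalk proteins, which recruit translation factors, did not move as 1 unit. RPLP0 had 3898, 3609 and 3272 FPKM in WT and 4578, 5073 and 4819 FPKM in KO and rose by 0.27 ± 0.06 (limma adjusted p = 0.0482). RPLP2 had 2144, 2174 and 1825 FPKM in WT and 2668, 2802 and 2939 FPKM in KO, a difference of 0.29 ± 0.08 that did not pass (adjusted p = 0.0594). RPLP1 had 3313, 3686 and 3188 FPKM in WT and 3489.8, 3770.5 and 3834 FPKM in KO, a difference of −0.04 ± 0.07 (adjusted p = 0.706). For RPLP0 and RPLP2 the genotypes did not overlap, and for RPLP1 they did.

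RPL5 and RPL11 bind MDM2 when ribosome assembly is disturbed. RPL11 had 2286, 2039 and 1871 FPKM in WT and 2587, 2952 and 2946 FPKM in KO, with an averaged difference of 0.29 ± 0.08 (limma adjusted p = 0.0659). RPL5 had 1312, 1262 and 1129.7 FPKM in WT and 1343, 1553 and 1505 FPKM in KO, with a difference of 0.09 ± 0.07 (adjusted p = 0.357). Neither passed the threshold. The same was true of RPS6, the S6 kinase substrate (0.09 ± 0.10, adjusted p = 0.505), of RPS3, a protein of the mRNA entry site (0.05 ± 0.07, adjusted p = 0.651), and of RPL10, which completes the large subunit late in assembly (−0.01 ± 0.06, adjusted p = 0.946). RPSA, also known as the laminin receptor and a protein of the small subunit, stood at 0.22 ± 0.07 (adjusted p = 0.0824).

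At the other end were RPS27L and RPS4X, neither of which passed. RPS4X, the X-linked copy of RPS4, had 1653, 1721 and 1612 FPKM in WT and 1495, 1881 and 1818 FPKM in KO, a centred difference of −0.11 ± 0.06 (limma adjusted p = 0.241). By FPKM, its KO value was the lower one in mock culture and the higher one in starved and refed culture. RPS27L and RPS4X were the 2 members below 0 in all 3 states after centring, where 32.9% of all features were, and 43 of 81 members were above 0 in all 3 states, where 32.8% of all features were.

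The KO to WT difference was near 0 in mock culture and larger in starved and refed culture. In mock culture the median member was at 0.02, 44 of 81 were higher in KO (51.1% of all features), and 1 gene was at least 25% higher and 1 lower by that ratio (RPS27L), against 13.1% and 13.6% of all features. In starved culture the median was 0.21, 73 were higher (49.1%), and 15 were at least 25% higher and none lower (11.5% and 12.4%). In refed culture the median was 0.29, 79 were higher (49.2%), and 33 were at least 25% higher and none lower (13.2% and 12.3%). No member was 2-fold apart in any state, where 5.45%, 3.84% and 4.36% of all features were. On the deposited values 5, 53 and 72 members were at least 25% higher in mock, starved and refed culture, against 17.4%, 29.2% and 35.2% of all features, and 1, none and none lower, against 11.0%, 6.24% and 5.39%. Other scalings lowered the counts. In refed culture 15 were at least 25% higher with centring by the upper quartile (10.0% of all features), 7 with scaling to the summed FPKM of other genes (10.1%), and 4 of 78 among features that reached 100 FPKM (13.2%), a limit chosen after the data were seen. In starved culture the last 2 settings gave 5 members each (9.67% and 12.6%). Under these last 2 settings the shares of the members were below those of all features in both starved and refed culture. The members above 0 in refed culture numbered 74 and 71 of 81 and 66 of 78 under these 3 settings. In starved culture they numbered 70 and 64 of 81 and 59 of 78, and in mock culture 36 and 34 of 81 and 28 of 78.

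**Figure D2:**
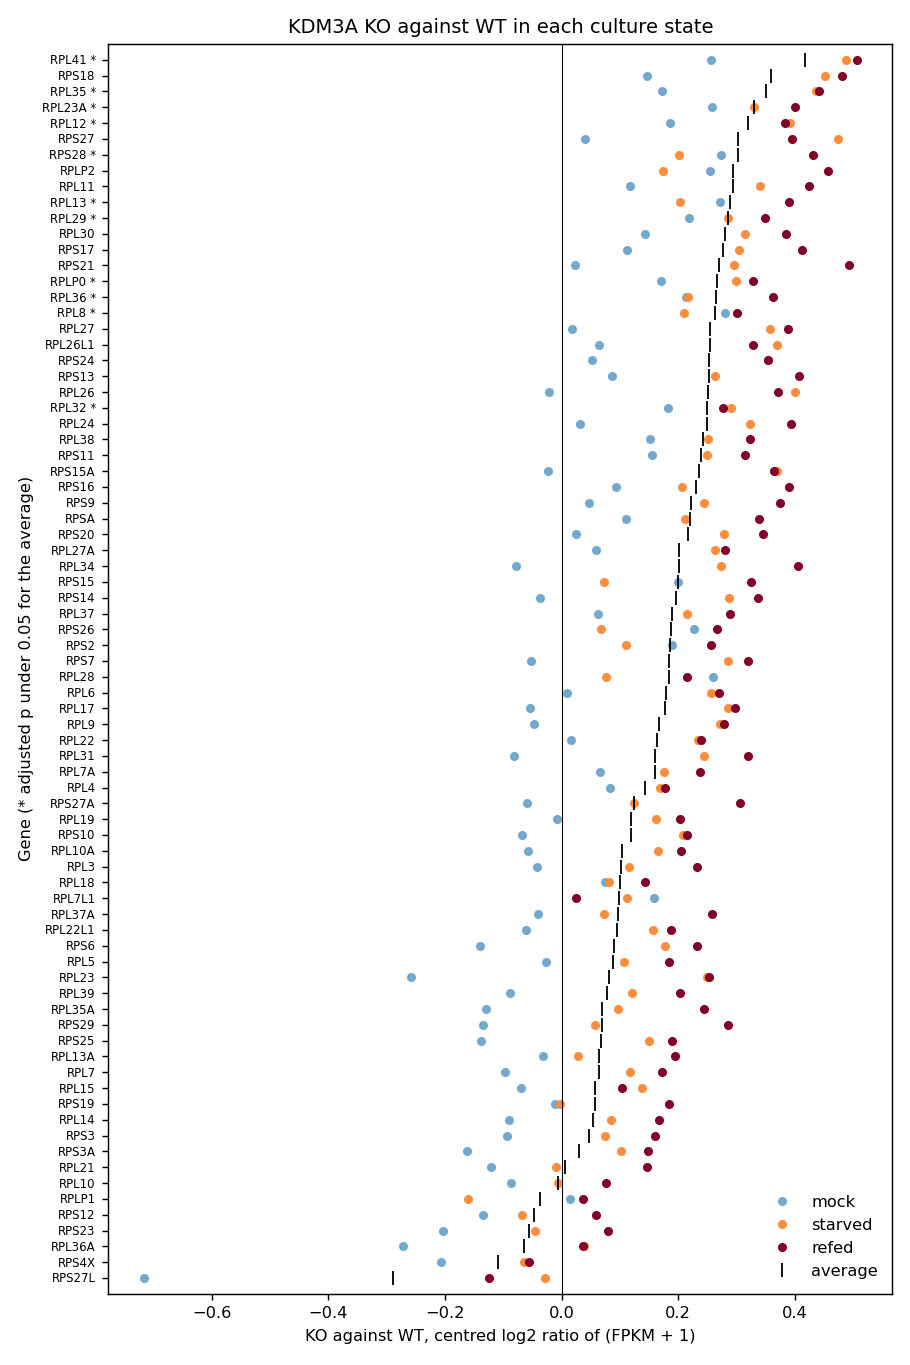
Centred log2 ratio of KO to WT for 78 of the 81 genes (rows, ordered by the average) in mock, starved and refed culture (points, 1 value against 1 value) with their average (tick). An asterisk marks the 11 of these genes with a limma adjusted p under 0.05; for most genes the mock point lies to the left of the other two, and RPS27L in mock is the point farthest left.

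After centring, all 3 KO values were above all 3 WT values for 25 of 81 members (13.6% of all features) and below them for 1, RPS27L (14.8%). On the deposited scale this held for 52 members and for none (25.5% and 6.09%). The averaged calls depended on single groups: 43 members rose without WT mock and 43 without KO mock, where 10.9% and 10.7% of all features rose. Without WT starved, WT refed, KO starved or KO refed none did, where 3.47%, 3.01%, 3.32% and 2.63% of all features rose. The median stayed between 0.13 and 0.25. Against only the 833 features that reached 100 FPKM in a group, a choice made after the data were seen, 3 of 78 members rose and 1, RPS4X (−0.22, adjusted p = 0.0350), fell (13.9% and 16.2% of those features), and the median was 0.07.

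Starvation was followed by slightly higher ribosomal protein mRNA, relative to the typical gene, with the larger differences in KO. Averaged over genotypes, 9 of 81 members rose and none fell, against 15.2% and 14.9% of all features, so calls were no more common than among all features. The median was 0.22 and 79 of 81 were above 0, where 49.4% of all features were. On the deposited values the median was 0.09, and none rose or fell (5.83% and 19.4% of all features).

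RPL22L1, the paralog of RPL22, rose the most: 135, 143 and 133 FPKM in WT mock, starved and refed and 135, 182 and 178 in KO, a starved to mock difference of 0.38 ± 0.08 (log2, SE, limma adjusted p = 0.0376). Its starved value was the highest of the 3 states in each genotype. RPS12, a small-subunit protein, had 3886, 4264 and 3833 FPKM in WT and 3692, 4651 and 4684 FPKM in KO (0.36 ± 0.08, adjusted p = 0.0389). RPL36, a large-subunit protein, had 2543, 2812 and 2465 FPKM in WT and 3075, 3735 and 3719 FPKM in KO (0.34 ± 0.08, adjusted p = 0.0390).

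RPS19, the gene most often mutated in Diamond-Blackfan anaemia, had 1386, 1526 and 1329 FPKM in WT and 1435, 1741 and 1772 FPKM in KO, a rise of 0.33 ± 0.08 (limma adjusted p = 0.0458). RPL13 had 549.8, 615 and 528 FPKM in WT and 693, 809 and 812 FPKM in KO, a rise of 0.32 ± 0.07 (adjusted p = 0.0417). RPS4X rose by 0.32 ± 0.07 (adjusted p = 0.0411). In these 6 genes the starved FPKM was above the mock FPKM in both genotypes. In WT the refed values were below the starved ones in each of them, and in KO this held for RPL22L1, RPL36 and RPS4X. RPL13 and RPL36 had also risen in KO against WT, the latter by 0.26 ± 0.06 (adjusted p = 0.0479) and the former by 0.29 ± 0.06 (adjusted p = 0.0382).

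RPSA, RPS27L and RPL21 had the lowest averaged values. RPSA had 1642, 1363 and 1147 FPKM in WT and 1849.7, 1803 and 1701 FPKM in KO, with a starved to mock difference of −0.03 ± 0.08 (limma adjusted p = 0.812). RPL21, a large-subunit protein, had 1247, 1091 and 908 FPKM in WT and 1196, 1239 and 1179 FPKM in KO (0.05 ± 0.09, adjusted p = 0.662). Both are among the genes with the most pseudogenes.

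The genotypes differed in the size of the starved to mock difference. In KO all 81 members were higher in starved than in mock culture (50.5% of all features), with a median of 0.31, and 34 were at least 25% higher and none lower (15.6% and 16.0%). In WT 70 were higher (50.3%), with a median of 0.13, and 7 were at least 25% higher and 1, RPS27L, lower (18.5% and 18.1%), but on the deposited values the WT median turned to −0.06. On those values no member was 25% higher and 1 lower by that ratio in WT (8.66% and 34.3% of all features), and 17 were higher and none lower in KO (12.0% and 20.6%). No member was 2-fold apart in either genotype (4.09% and 2.04% of all features). Subtracting the WT from the KO difference gave a median of 0.18, with 71 of 81 members above 0, where 46.9% of all features were. No test of this difference is possible with 1 value per group, and it rests on the same 4 values as the KO to WT differences in mock and starved culture.

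Leaving out 1 group changed these counts: 42 members rose without WT mock and 3 without KO mock, where 8.24% and 11.2% of all features rose. None rose without WT refed or KO refed (8.71% and 7.57%), nor without WT starved or KO starved, where almost no feature was called (0.0299% and 0.0970%). The median ranged from 0.12 to 0.32. Against the features that reached 100 FPKM, 11 of 78 members rose (11.4% of those features).

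Refeeding for the unstated time before harvest did not raise the set. No member rose or fell in the averaged comparison, against 1.07% and 0.0817% of all features, and the same was true on the deposited values (0.773% and 0.0520%). The median was −0.10 and 79 of 81 members were below 0, although 46.0% of all features were above it. RPL7L1 and RPL26L1 were the 2 above 0, at 0.07 ± 0.06 (limma adjusted p = 0.766) and 0.04 ± 0.10 (adjusted p = 0.949). The paralogs RPL7L1, RPL26L1 and RPS27L were also the 3 members higher in refed than in starved WT cells (47.9% of all features were), at 0.11, 0.06 and 0.03, while the other 78 ran from −0.26 to −0.02.

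The lowest averaged values belonged to RPL13A, RPL21 and RPSA. RPL13A, which also acts in a complex that silences some inflammatory mRNAs, had 2375, 2508 and 2063 FPKM in WT and 2425, 2925 and 2769 FPKM in KO, a refed to starved difference of −0.18 ± 0.09 (limma adjusted p = 0.530). RPL21 stood at −0.17 ± 0.09 (adjusted p = 0.590) and RPSA at −0.16 ± 0.08 (adjusted p = 0.559). In all 3 genes the refed FPKM was below the starved FPKM in both genotypes.

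In WT 78 of 81 members were lower in refed than in starved cells (52.1% of all features), with a median of −0.13. In KO 71 were lower (53.2%), with a median of −0.06. None was 25% higher, or lower by that ratio, in either genotype, where 6.41% and 3.77% of all features were in WT and 6.60% and 2.68% in KO. The same held on the deposited values, with 5.99% and 4.44% of all features in WT and 6.93% and 2.39% in KO. No member was 2-fold apart (2.42% and 2.36% of all features). The centred refed to starved ratio was higher in KO than in WT for 70 of 81 members (50.4% of all features). The median difference over the 81 was 0.07 and was not tested. Without WT refed the averaged median was −0.01 and without KO refed −0.17.

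**Figure D3:**
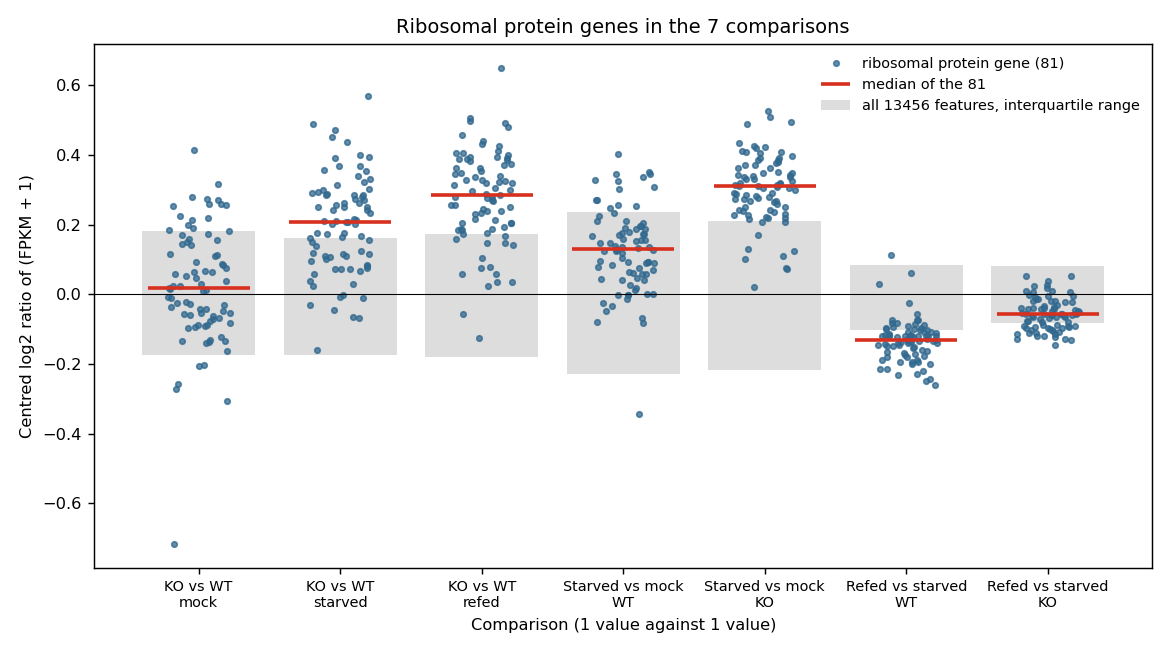
Centred log2 ratios of the 81 genes (points) in the 7 comparisons of 1 value with 1 value, with their median (line) and the interquartile range of all 13456 features (grey bar). The median is near 0 for KO against WT in mock culture (0.02), highest for starved against mock in KO (0.31) and below 0 for both refed comparisons (−0.13 in WT, −0.06 in KO).

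Members with and without an annotated TOP start had similar medians in these comparisons. Among the 66 compared genes that were in the promoter table, the medians with (47 genes) and without (19 genes) a TOP start were 0.18 and 0.17 for KO against WT, 0.23 and 0.22 for starved against mock, and −0.10 and −0.09 for refed against starved. An annotated start need not be the one these cells use.

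The paralogs differed from their main copies in level and in part in pattern. RPS27L, a p53 target that can replace RPS27 in ribosomes, had 86.5, 59.4 and 59.8 FPKM in WT mock, starved and refed and at 54.6, 66.7 and 64.4 in KO. Its level was highest in WT mock and lowest in KO mock. It amounted to 1.70%, 1.36% and 1.41% of the FPKM of RPS27 in WT and to 1.0%, 0.960% and 0.984% in KO.

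After centring, RPS27L stood at −0.72 in mock, −0.03 in starved and −0.12 in refed culture (KO against WT, log2), and its averaged difference of −0.29 ± 0.15 did not pass (limma adjusted p = 0.219). RPS27 itself had 5088, 4378 and 4244 FPKM in WT and 5458, 6947 and 6546 FPKM in KO, an averaged difference of 0.30 ± 0.11 (adjusted p = 0.105). The RPS27L difference thus lay in the mock values, where WT mock also carries the endothelial markers and SNORD81.

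RPL22L1 was the only paralog at a level close to its main copy. It stood at 43.2%, 52.1% and 52.7% of RPL22 in WT and at 40.9%, 49.4% and 50.9% in KO, higher in starved and refed than in mock culture in both genotypes. RPL22 had 313, 274 and 252 FPKM in WT and 329.8, 369 and 349 FPKM in KO. In WT, RPL22 was lower in starved than in mock culture by FPKM, and RPL22L1 was higher. After centring, the WT starved to mock ratio (log2) was 0.0006 for RPL22, so it did not differ from the typical gene. For RPL22L1 it was 0.27.

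RPL26L1 had 65.3, 54.3 and 55.9 FPKM in WT and 71.3, 80.7 and 82.7 FPKM in KO, between 1.60% and 1.82% of RPL26. RPL26 had 3910.2, 3346 and 3078 FPKM in WT and 4022, 5048 and 4671 FPKM in KO. The averaged KO to WT differences of this pair were nearly equal, 0.25 ± 0.08 for RPL26L1 and 0.25 ± 0.11 for RPL26 (limma adjusted p = 0.0807 and 0.155). RPL7L1, whose protein acts in the assembly of the large subunit, had 27.6, 26.8 and 28.6 FPKM in WT and 32.4, 33.3 and 34.3 FPKM in KO, between 0.819% and 1.06% of RPL7. Its averaged KO to WT difference of 0.10 ± 0.05 did not pass (limma adjusted p = 0.200).

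**Figure D4:**
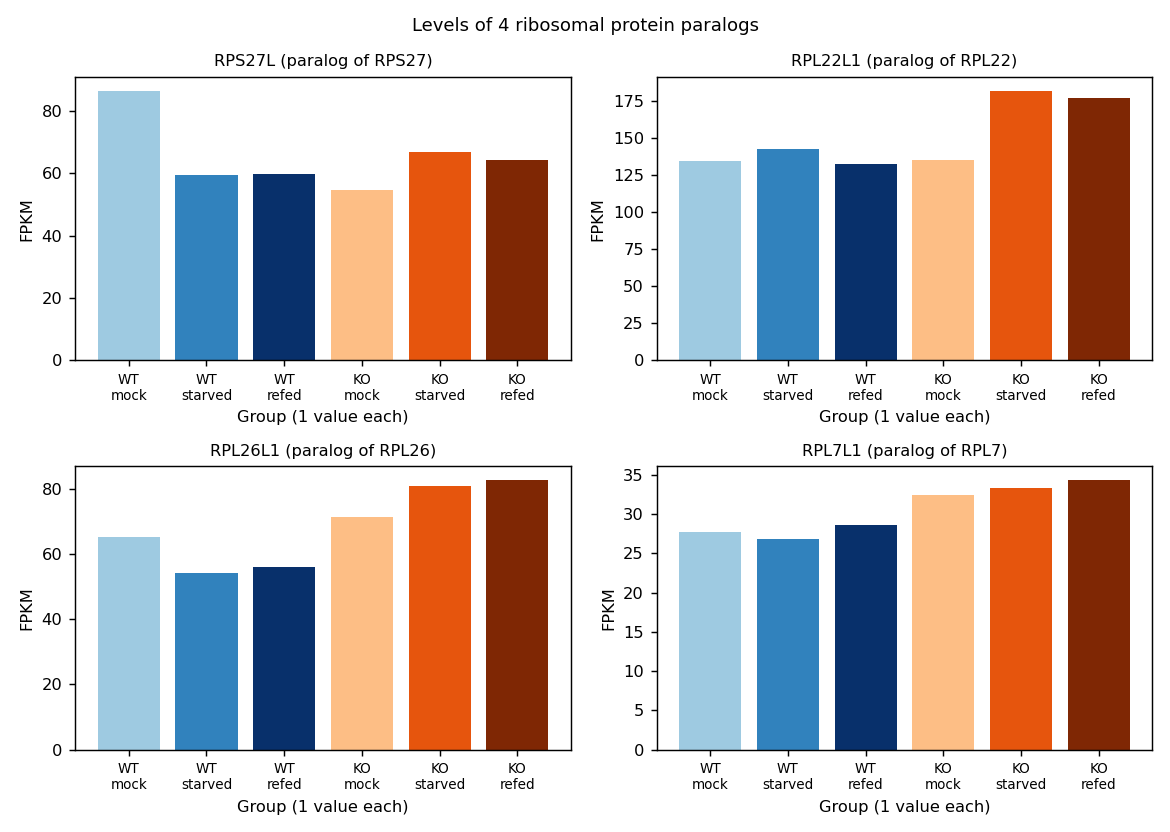
FPKM of RPS27L, RPL22L1, RPL26L1 and RPL7L1 in the 6 groups (bars from 0, 1 value each, no error available). RPS27L is highest in WT mock (86.5) and RPL22L1 is highest in KO starved (182). By deposited FPKM, RPL26L1 and RPL7L1 are higher in each KO group than in any WT group. On that scale the same held for 52 of 81 members and 25.5% of all features. After centring it held for RPL26L1 but not for RPL7L1.

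Differences between members went with the GC content of their transcripts, most in mock culture. GC content and length were taken from the longest principal transcript in GENCODE v29, which may not be the one expressed. GC ran from 40.6% to 64.6%. Across the 81 members the Spearman correlation of GC content with the KO to WT ratio was 0.57 in mock, 0.13 in starved and 0.36 in refed culture, against 0.08, −0.08 and 0.20 across 11773 features with a transcript. With the starved to mock ratio it was 0.31 in WT and −0.29 in KO (0.32 and 0.21 across all). With transcript length the averaged KO to WT ratio had a correlation of −0.36 (−0.08 across all). Members share libraries, and the part of base composition in the differences was not tested.

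**Figure D5:**
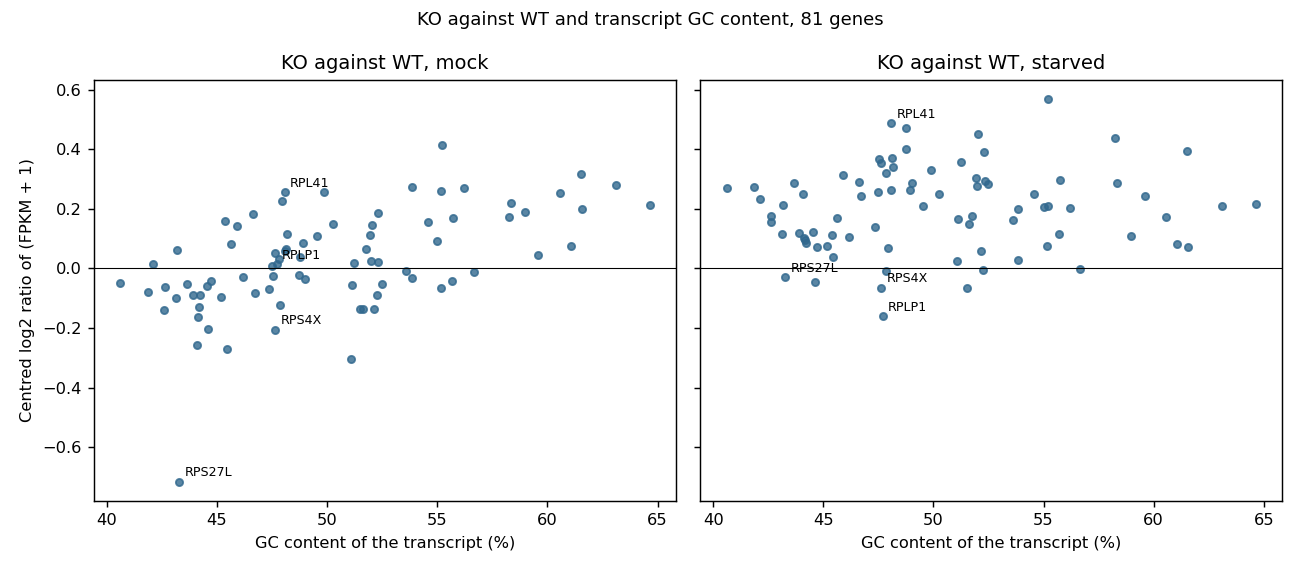
Centred log2 ratio of KO to WT against transcript GC content (%) for the 81 genes (points, 1 value against 1 value) in mock and starved culture. In mock culture genes with higher GC content tend to lie higher (Spearman 0.57), in starved culture hardly so (0.13).

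Some ribosomal protein genes have other names that the rule does not match. FAU, which encodes RPS30 fused to a ubiquitin-like protein, had 968, 941 and 869 FPKM in WT and 1151, 1381 and 1419 FPKM in KO and rose (0.34, limma adjusted p = 0.0416). GNB2L1 (RACK1), a scaffold on the small subunit, and RPL36AL, a copy of RPL36A, were at 0.09 and −0.12 and did not pass. None of these rose or fell with starvation (15.2% and 14.9% of all features) or serum (1.07% and 0.0817%).

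Other TOP mRNAs of translation, 18 genes, had a median KO to WT difference of 0.14. Of these 4 rose and none fell, against 13.5% and 11.0% of all features. The 4 were EEF1D, a guanine nucleotide exchange subunit for elongation factor 1 (0.35, limma adjusted p = 0.0204), and the initiation factor 3 subunits EIF3E (0.27, adjusted p = 0.0314), EIF3F (0.20, adjusted p = 0.0462) and EIF3H (0.20, adjusted p = 0.0460). With starvation none of the 18 rose or fell (15.2% and 14.9% of all features). The median was 0.01, against 0.22 for the ribosomal protein genes. With serum the median was −0.11 and none passed (1.07% of all features rose and 0.0817% fell). EEF1A1, the main elongation factor and normally among the most abundant mRNAs, was listed at 0 in 5 groups and at 3742 FPKM in WT refed, values that are uncertain. Without it, a choice made after the data were seen, the medians of the other 17 genes were 0.15, 0.01 and −0.11, with the same counts.

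Initiation factors outside that list (26 of 27 compared) centred on 0.00 in KO against WT. Of the 26, 1 rose and 2 fell, against 13.5% and 11.0% of all features. EIF1AX, which helps scan for the start codon, rose (0.26, limma adjusted p = 0.0317), and EIF4G1, the scaffold of the cap complex (−0.24, adjusted p = 0.0260), and EIF5 (−0.23, adjusted p = 0.0413) fell. With starvation 4 rose and none fell, against 15.2% and 14.9% of all features. Among the 4 was EIF6, which keeps the subunits apart (0.38, adjusted p = 0.0189). EIF1 rose with serum in both genotypes, from 239 to 346 FPKM in WT and from 278 to 409 in KO (0.55, adjusted p = 0.0479). EIF3C was listed at 0.0165 FPKM or less in every group and was not compared. EIF3A, another subunit of initiation factor 3, had 53.9 to 70.3 FPKM, and the EIF3C values are uncertain.

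Of 18 genes of mTORC1 and TOP control, 1 rose and 2 fell in KO against WT, where 13.5% and 11.0% of all features did. Their median difference was −0.01. MLST8, a subunit of the complex, had 28.1, 31.2 and 28.5 FPKM in WT and 42.7, 43.8 and 42.8 FPKM in KO (0.38, limma adjusted p = 0.0242). DEPTOR, its inhibitor, had 5.83, 4.51 and 4.31 FPKM in WT and 3.39, 2.82 and 2.64 FPKM in KO (−0.73, adjusted p = 0.00432). RRAGA, a GTPase that brings the complex to lysosomes, fell by 0.20 (adjusted p = 0.0444). With starvation 4 rose and 2 fell (15.2% and 14.9% of all features), and the median was 0.05. Among the 4 were LARP1, which binds TOP starts (0.29, adjusted p = 0.0453), and TSC2, an upstream inhibitor (0.35, adjusted p = 0.0255). None passed with serum (1.07% of all features rose and 0.0817% fell).

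Host genes of small nucleolar RNAs, whose spliced RNAs carry TOP starts but code for no protein, had a larger median difference with starvation. Of 12, 7 rose and none fell (15.2% and 14.9% of all features), with a median of 0.41. EPB41L4A-AS1, an antisense gene whose reads cannot be told from those of its partner where counting ignores strand, was at 27.0 and 41.6 FPKM in WT mock and starved and at 27.7 and 46.3 in KO (0.79, limma adjusted p = 0.0131). SNHG12 (0.69, adjusted p = 0.0141), SNHG15 (0.63, adjusted p = 0.0130) and GAS5 (0.54, adjusted p = 0.0294) rose as well. GAS5 hosts SNORD81, the RNA listed high in WT mock. With serum only SNHG15 rose (0.64, adjusted p = 0.0394), where 1.07% of all features rose, and the median of the 12 was −0.11. In KO against WT 1 rose, SNHG16 (0.40, adjusted p = 0.0150), and 1 fell, SNHG3 (−0.37, adjusted p = 0.0137). Of all features 13.5% rose and 11.0% fell there. Whether any of these lists differs from the ribosomal protein genes was not tested.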

How the data were processed

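The submitters list 12 polyadenylated RNA samples and 6 tables, 1 per group. Per the submitters' processing notes, FastQC, cutadapt and TopHat2 were used with build hg19, and no versions were given. The deposited values are FPKM computed by the authors. The program, its gene annotation, and how the 2 samples of a group enter its column are not given in the sources used here. Depth is unknown.

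Values were used as log2(FPKM + 1) for the 13456 features that reached 1 FPKM in some group, and each group was centred on the median deviation of all of them. limma 3.58.1 (R 4.3.3) with a variance trend fitted genotype and culture state to the 6 values, which leaves 2 residual degrees of freedom, the interaction. P-values were adjusted by Benjamini-Hochberg over all features. The fit was run on simulated data with known shifts and independent noise. That simulation held no interaction of genotype and state, so it cannot show how firm the calls are here. Starts were read with Python 3.11.15 from the RefSeq table, any listed start counting. For genes with a TOP start, the window shown is that of the TOP start with the longest pyrimidine run. For the other genes it is that of the listed start with the lowest coordinate. Figures were drawn with matplotlib 3.10.9.

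Named were members under 1 FPKM, the 5 highest and 5 lowest, the largest 6 that passed in each direction per averaged comparison (or the largest 3 where none passed), members of known separate roles, and paralogs with their main copies. A further rule, members 1 log2 unit or more from the median of the set, found none. Up to 4 genes per list were named, and a few beyond that after their values were seen. Some genes that the rule would name are not reported here, though they stay in counts and medians. The members and lists were chosen with earlier results of these data known. Alternatives were other scalings, pseudocounts, filters and models, and leaving out each group.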

Additional observations from a re-analysis of the deposited data

Results flagged for a closer look

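RPS27L went opposite ways in the 2 genotypes from mock to starved culture. Its centred log2 ratio of starved to mock was −0.344 in WT and 0.343 in KO, from 86.5 to 59.4 FPKM in the former and 54.6 to 66.7 FPKM in the latter. After centring, 11 of 81 members were below 0 in WT for this comparison and all 81 were above 0 in KO. RPS27L was singled out because its centred ratios passed the 25% limit (0.32 log2 units) in opposite directions. By FPKM its change in KO was smaller than that limit. The difference was not tested, since each group has 1 value. Groups held too few values to look for outlying samples.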

How the results depend on the processing

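No paired analysis was possible because each group has 1 column, so no replicate numbers could be matched. No member passed in either direction in the averaged refed to starved comparison under any alternative run, and no named member passed in opposite directions. For KO against WT averaged, 8 rose with centring by the upper quartile (10.2% of all features), 6 with scaling to the summed FPKM (9.77%), 21 as deposited (28.7%), 1 with no filter (7.98%), 1 with no term for culture state (2.58%), and 3 (1 fell) at 100 FPKM or more (13.9% and 16.2%), an alternative chosen after seeing the data. The median was 0.35 as deposited and 0.34 with no filter. Leaving out 1 group at a time gave 0 to 43 risers (2.63% to 10.9% of all features). For starved against mock, 31 rose with the summed FPKM (17.0% of all features), 16 with pseudocount 0.1 (17.1%), and 0 with pseudocount 5 (12.6%), as deposited (5.83%) or with no filter, where almost nothing was called (0.0152%); the median was 0.0941 as deposited and 0.0938 with no filter, and leaving out groups gave 0 to 42 risers (0.0299% to 11.2%) and medians of 0.12 to 0.32. For refed against starved the median was −0.14 with the upper quartile and −0.15 with the summed FPKM, and −0.173 to −0.0131 with groups left out; in KO it was −0.11 and −0.13.

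Counts of members at least 25% higher, or lower by that ratio, moved with the scaling. KO against WT in mock culture gave 5 higher as deposited and with no filter, 2 higher with pseudocount 5, and 2 lower with the upper quartile, 5 FPKM or no filter, 3 lower with the summed FPKM or 100 FPKM. In starved culture 53 were higher as deposited (median 0.40) and with no filter (0.39), 33 with pseudocount 5, and 5 with the summed FPKM or 100 FPKM. In refed culture 72 were higher as deposited (0.52) and with no filter (0.50), 54 with pseudocount 5, 15 with the upper quartile, 7 with the summed FPKM, and 4 at 100 FPKM (0.12). Starved against mock in KO gave 17 higher as deposited and with no filter. In WT 0 were higher as deposited and with no filter, 1 with pseudocount 5, 4 at 100 FPKM and 11 with the summed FPKM; 2 were lower with no filter and 0 with the summed FPKM, pseudocount 0.1 or 100 FPKM; and the median reversed to −0.0592 as deposited and −0.0543 with no filter. The cause was not tested, except that with no filter, features at 0 in every group enter the median and little is centred. Unknown depth limits the low paralogs most.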
